A study of Mus musculus with 6 samples.

Results

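The integrated stress response and eIF2 control genes are 33 genes of the table's 23235, taken by exact symbol from a list. They are targets of the transcription factor ATF4 other than tRNA synthetases, kinases of the initiation factor eIF2, subunits of eIF2 and of its exchange factor eIF2B, and regulatory subunits of the eIF2 phosphatase. All 33 symbols were found. The RNA came from fully-grown oocytes at the germinal vesicle (GV) stage, arrested in meiosis before maturation, of C57BL/6 mice given PMSG, a gonadotropin that drives follicle growth. There were 3 libraries of oocytes labelled as Rtcb knock-out (Rtcb KO) and 3 of wild-type oocytes (WT). Each library was made from 10 pooled oocytes. Sample titles carry the mark 6W, which the labels do not spell out, and the sources used here do not give the driver or the deleted part of the knock-out allele. RTCB is the ligase that rejoins tRNA exons after splicing and, in the unfolded protein response, Xbp1 mRNA.

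In the integrated stress response, kinases that sense heme deficit, amino acid shortage, double-stranded RNA or unfolded protein phosphorylate eIF2 on its alpha subunit. Phosphorylated eIF2 blocks eIF2B, which reloads eIF2 with GTP, so that most translation slows while Atf4 mRNA is translated more. ATF4 then induces genes of amino acid supply, redox control and further transcription factors, and PPP1R15A or PPP1R15B bring protein phosphatase 1 to eIF2 to end the response. Growing oocytes store much mRNA for later translation, and by the end of growth their transcription falls silent.

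ATF4 binds, with C/EBP partners, a composite element known as CARE, whose core is TGATGNAA. The sequences of 4 members are shown because they hold this core and differ in how their transcripts stood in Rtcb KO oocytes. Each is the 300-base window of RefSeq on build GRCm38.p6, from 250 bases before to 50 bases after the annotated start, read 5′ to 3′ on the gene's strand. Capitals mark the core on either strand (TTGCATCA is TGATGCAA read on the other strand). Chac1 lies at chr2:119350992-119351291 on the plus strand, Slc7a11 at chr3:50443564-50443863, Asns at chr6:7693160-7693459 and Atf3 at chr1:191183284-191183583, these 3 on the minus strand.
Chac1: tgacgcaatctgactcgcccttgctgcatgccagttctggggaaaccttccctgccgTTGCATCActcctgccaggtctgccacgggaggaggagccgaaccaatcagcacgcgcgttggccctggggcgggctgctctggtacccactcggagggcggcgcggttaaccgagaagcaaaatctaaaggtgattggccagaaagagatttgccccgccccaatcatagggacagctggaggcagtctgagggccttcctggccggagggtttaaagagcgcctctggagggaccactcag
Slc7a11: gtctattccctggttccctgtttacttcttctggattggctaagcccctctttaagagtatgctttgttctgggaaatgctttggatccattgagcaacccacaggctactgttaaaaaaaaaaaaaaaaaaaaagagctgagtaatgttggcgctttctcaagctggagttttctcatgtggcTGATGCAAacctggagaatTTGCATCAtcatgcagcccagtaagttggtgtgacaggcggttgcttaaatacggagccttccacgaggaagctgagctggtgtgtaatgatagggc
Asns: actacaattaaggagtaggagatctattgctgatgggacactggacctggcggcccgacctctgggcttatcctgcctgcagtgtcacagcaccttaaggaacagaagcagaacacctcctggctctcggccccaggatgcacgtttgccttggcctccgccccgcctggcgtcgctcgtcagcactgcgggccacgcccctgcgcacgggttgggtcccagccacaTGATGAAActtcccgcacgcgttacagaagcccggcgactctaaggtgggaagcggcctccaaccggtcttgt
Atf3: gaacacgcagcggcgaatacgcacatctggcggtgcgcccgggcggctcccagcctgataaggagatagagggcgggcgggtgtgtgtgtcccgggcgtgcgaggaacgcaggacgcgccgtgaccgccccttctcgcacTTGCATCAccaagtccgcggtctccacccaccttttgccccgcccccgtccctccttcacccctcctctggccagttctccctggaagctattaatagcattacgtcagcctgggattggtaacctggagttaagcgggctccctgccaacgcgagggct

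Windows were found for 29 of the 33 members, and 8 of these 29 genes held the core (27.6%), against 1219 of all 27025 genes with a window (4.51%). Over windows rather than genes, 8 of 34 member windows (23.5%) and 1304 of all 32851 windows (3.97%) held it. The list was drawn from known ATF4 targets, so this share describes how the list was made. The other 4 genes with the core were Trib3, Nupr1, Pck2 and Vldlr. None of the 7 eIF2, eIF2B and eIF2 kinase genes with a window held it. Ppp1r15b, Eif2b3, Cth and Slc7a5 had no window. The stricter core TGATGCAA was in the windows of Atf3, Chac1, Slc7a11, Nupr1 and Vldlr (5 of 29 genes, 17.2%), against 279 of 27025 genes (1.03%), and Slc7a11 held it on each strand. A match is a description of the letters and says nothing of binding in oocytes.

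The values are FPKM per gene, a level per transcript length, normalized by the authors to ERCC spike-in RNA. Summed FPKM ran from 943926 to 999507 in Rtcb KO libraries and from 1267730 to 1347010 in WT libraries, and read depth is unknown. Rtcb itself, listed as D10Wsu52e, had a mean of 2.98 ± 0.733 FPKM in Rtcb KO and 127 ± 12.9 FPKM in WT (SD, n = 3 each). All 10 oocyte markers were present, with a summed level of 15450 to 16800 FPKM in Rtcb KO and 22880 to 26830 FPKM in WT. As deposited 6 of them were called lower and 0 higher, beside 54.0% and 9.29% of all tested genes. With the genotype factors described below removed 1 was called lower and 3 higher, beside 18.0% and 25.7% of all tested genes. The 15 granulosa and cumulus markers summed to 45.8 to 56.6 FPKM in Rtcb KO and to 56.9 to 65.1 FPKM in WT as deposited, but to 34.3 to 42.4 in Rtcb KO and 28.4 to 32.5 in WT with those factors removed. Of their 5 tested genes, Cyp19a1 was called lower and Nr5a2 higher as deposited, while 2 were called higher and 0 lower with the factors removed, and Ptx3 was at 0 in every library. Cyp19a1 made up most of the WT sum, at 35.6, 39.8 and 37.2 FPKM, and Foxl2, Fshr and Amh were under 1 FPKM in every library. Inha, Cyp11a1 and Kitl were tested and not called as deposited. Inha was at 6.08, 8.12 and 17.8 FPKM in Rtcb KO libraries and at 7.28, 8.36 and 3.50 FPKM in WT libraries. In KO 3 it lay above Cyp19a1, which was at 17.5 FPKM there. The 8 blood and immune markers summed to 19.1 to 37.8 FPKM in Rtcb KO and to 34.5 to 49.7 FPKM in WT as deposited, and to 14.3 to 28.3 in Rtcb KO and 17.2 to 24.8 in WT with the factors removed, with Hbb-b1 and Hba-a1 at 0 in every library. Most of the WT sum was Pecam1, at 46.7, 38.1 and 30.2 FPKM in WT libraries and at 16.7, 19.4 and 18.9 FPKM in Rtcb KO libraries. These marker sums therefore rest largely on 1 gene each in WT. Library KO 2 stood apart in Cd74, at 9.52 FPKM, and Lyz2, at 5.46 FPKM, against 0 for both in KO 1 and KO 3 and at most 0.157 FPKM in WT. Pecam1 and Cd68 did not set it apart in this way. Cd68 was at 2.16, 3.02 and 0.879 FPKM in Rtcb KO libraries and at 2.88, 4.69 and 3.82 FPKM in WT libraries. The part of granulosa, cumulus, blood and immune cells in the results was not tested. In pooled oocytes, fewer cells of a type and less RNA per cell cannot be told apart. The labels do not tie libraries to different animals. The p-values therefore rest on the spread among these libraries, which could be technical.

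Of the 33 members, 28 averaged 1 FPKM or more over the 6 libraries and were tested with limma on log2(FPKM + 1), with p-values adjusted over all 12029 tested genes and called under 0.05. In Rtcb KO oocytes 1 member rose and 19 fell, and 8 were not called. The share called higher was 3.57% of the 28 members and 9.29% of all tested genes, and the share called lower was 67.9% of the members and 54.0% of all genes. Of all tested genes 63.3% were called in either direction, so calls, most of them lower, were common throughout the table. The members' median log2 fold change was −0.62, and that of all tested genes was −0.47. The 3 Rtcb KO values lay below all 3 WT values for 19 members and above them for 1. Over all tested genes the shares were 57.5% and 10.2%.

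The scaling bears on every count. All WT columns carry one common factor of 2 and all KO columns one of 4/3, a KO to WT ratio of 0.667, which is −0.58 on the log2 scale. The median log2 fold change of all tested genes was −0.47 as deposited and 0.043 with both factors divided out (genotype factors removed below). Then 5 members were called higher and 6 lower (17.9% and 21.4% of 28), against 25.7% and 18.0% of all tested genes. With libraries rescaled to equal totals, 2 were higher and 9 lower, against 19.0% and 25.8% of all genes. With median-ratio rescaling, 5 were higher and 7 lower, against 23.4% and 21.2% of all genes. Called in the same direction under all 4 scalings were 1 higher member, Chac1, and 6 lower members, namely Eif2ak1, Eif2ak4, Eif2b1, Phgdh, Aldh18a1 and Slc7a11. The fold changes below are as deposited and include the factor ratio unless stated otherwise.

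**Figure D1:**
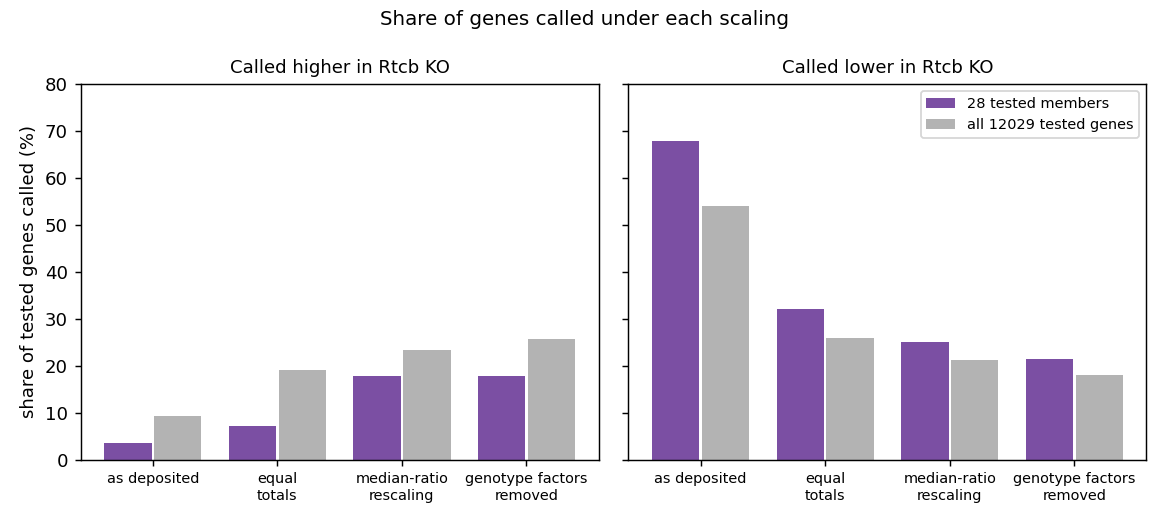
Share of tested genes called higher (left panel) or lower (right panel) in Rtcb KO under 4 scalings, in percent, for the 28 tested members and for all 12029 tested genes. From as deposited to genotype factors removed, the share called lower goes from 67.9% to 21.4% for the members and from 54.0% to 18.0% for all genes. The share called higher goes from 3.57% to 17.9% for the members and from 9.29% to 25.7% for all genes. Differences between these shares were not tested.

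**Figure D2:**
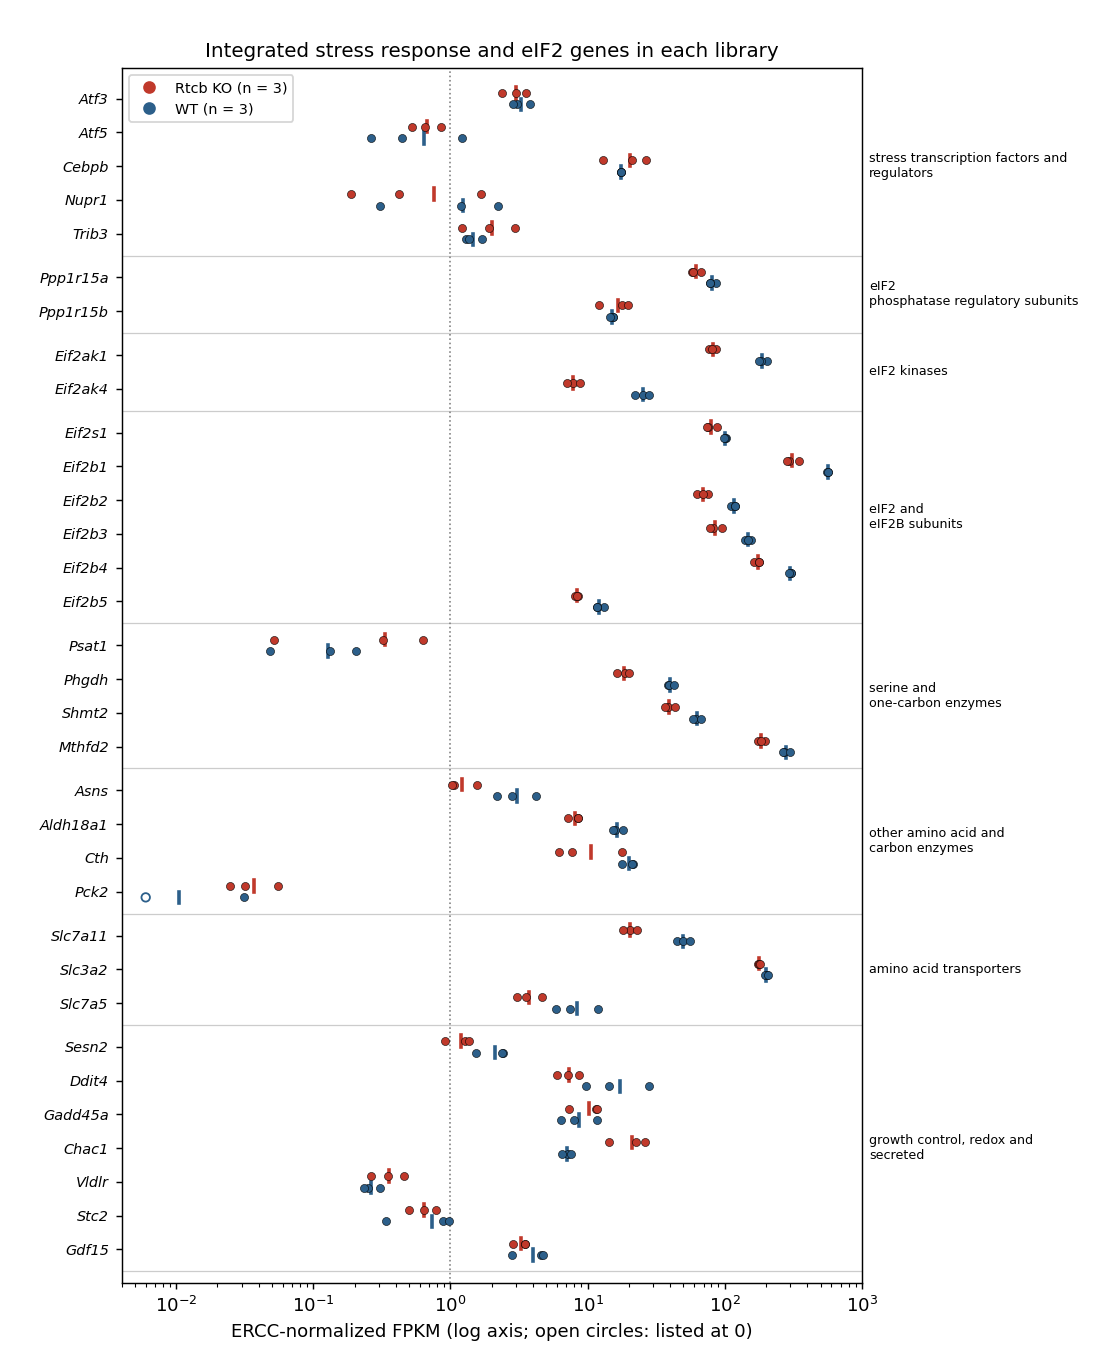
FPKM of each of the 33 members in every library on a log axis, grouped by role, with Rtcb KO points above WT points, group means as vertical ticks and the 1 FPKM filter as a dotted line. As deposited, both eIF2 kinases and all 6 eIF2 and eIF2B subunits lie lower in each Rtcb KO library than in any WT library. So do 57.5% of all tested genes. Of the members Chac1 alone lies higher in each, as do 10.2% of all tested genes. Eif2s1 and Eif2b5 turn sign with the genotype factors removed. The open circle for Pck2 stands for the 2 WT libraries listed at 0.

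Both listed eIF2 kinase transcripts were lower in Rtcb KO oocytes. Of all tested genes 54.0% were called lower as deposited and 18.0% with the genotype factors removed. The kinase differences were among the largest of the members. Eif2ak4 encodes GCN2, which senses uncharged tRNA. Its level was 7.76, 8.84 and 7.06 FPKM in Rtcb KO libraries, against 25.2, 22.3 and 28.1 FPKM in WT libraries. No Rtcb KO library came near a WT one, and the mean was 3.20-fold lower (log2 fold change −1.56, SE 0.139, limma adjusted p = 0.000164). Eif2ak1 encodes the heme-regulated inhibitor HRI, which also relays mitochondrial stress. It stood at 86.8, 77.0 and 80.7 FPKM in Rtcb KO libraries and at 202, 184 and 177 FPKM in WT libraries. The groups lay far apart and the mean was 2.30-fold lower (log2 fold change −1.19, SE 0.0935, adjusted p = 0.000162). Both calls held with the genotype factors removed, with log2 fold changes of −0.98 for Eif2ak4 and −0.61 for Eif2ak1. On the per-length scale Eif2ak1 was the more abundant of the 2 in every library. Exons of Eif2ak1 overlap those of Aimp2 and Ankrd61 on the opposite strand, in the GENCODE vM21 annotation. No source used here says that counting used strand, so reads of overlapping genes cannot be told apart.

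The remaining kinases of the family were outside the list of members. Eif2ak3, which encodes the ER stress sensor PERK, was at 6.47, 3.16 and 5.83 FPKM in Rtcb KO libraries and at 2.72, 2.12 and 2.46 FPKM in WT libraries. Every Rtcb KO library lay above every WT library (log2 fold change 0.80, adjusted p = 0.0178), opposite in direction to Eif2ak1 and Eif2ak4. Its call was lost without KO 1, KO 3 or WT 2 (adjusted p up to 0.0675). With all libraries Eif2ak3 was called higher under all 4 scalings. Its log2 fold change was 1.096 with the genotype factors removed (adjusted p = 0.00563). Eif2ak2, the double-stranded RNA sensor PKR, averaged 0.213 ± 0.116 FPKM in Rtcb KO and 0.193 ± 0.0979 FPKM in WT and was under the filter.

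All 6 listed subunits of eIF2 and eIF2B were lower in Rtcb KO oocytes as deposited, Eif2s1 and Eif2b5 turning sign with the genotype factors removed. Of all tested genes 54.0% were called lower as deposited and 18.0% with the factors removed. Eif2s1, the alpha subunit that the kinases phosphorylate, was at 87.1, 75.7 and 74.8 FPKM in Rtcb KO libraries and at 103, 99.9 and 98.0 FPKM in WT libraries. The groups did not overlap, and the mean was 1.27-fold lower (log2 fold change −0.34, SE 0.0942, adjusted p = 0.0140), the smallest fall of the 6. Without KO 3 the adjusted p was 0.0536, and the turned sign was not called (log2 fold change 0.24, adjusted p = 0.0709).

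Among eIF2B subunits, Eif2b1, which encodes the alpha subunit that binds phosphorylated eIF2, fell furthest. It was at 294, 346 and 283 FPKM in Rtcb KO libraries, against 564, 555 and 569 FPKM in WT libraries. WT libraries agreed closely with each other, KO 2 was the highest of the Rtcb KO libraries, and the mean was 1.83-fold lower (log2 fold change −0.88, SE 0.0965, adjusted p = 0.000241). Eif2b2, Eif2b3 and Eif2b4, the beta, gamma and delta subunits, fell alike, by 1.68-fold, 1.74-fold and 1.73-fold. Eif2b5, the epsilon subunit that carries the nucleotide exchange activity, averaged 8.31 ± 0.221 FPKM in Rtcb KO and 12.2 ± 0.826 FPKM in WT (SD, n = 3 each), a fall of 1.47-fold. It was the least abundant eIF2B transcript per length in both genotypes, with Eif2b1 at the top. Of the 5, Eif2b1 alone stayed called with the genotype factors removed (log2 fold change −0.29, adjusted p = 0.0401), and Eif2b5 turned to 0.029 (adjusted p = 0.860). Exons of Eif2b4 overlap those of Snx17 on the opposite strand.

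The regulatory subunits of the eIF2 phosphatase differed from each other. Ppp1r15a, the stress-induced subunit known as GADD34, was at 57.9, 58.7 and 67.3 FPKM in Rtcb KO libraries and at 86.1, 77.8 and 78.7 FPKM in WT libraries. It was lower in every Rtcb KO library (1.32-fold by the means, adjusted p = 0.00923). Ppp1r15b, the constitutive subunit known as CReP, was at 17.8, 12.2 and 19.6 FPKM in Rtcb KO libraries and at 15.4, 15.3 and 14.5 FPKM in WT libraries. Its groups overlapped through KO 2, and it was not called (log2 fold change 0.10, adjusted p = 0.633). Ppp1r15b was called higher with the genotype factors removed (log2 fold change 0.63, adjusted p = 0.0212), while Ppp1r15a turned to 0.18 and was not called (adjusted p = 0.173). Exons on the opposite strand overlap both, of Gm26616 for Ppp1r15b and, over 12 bases, of Tulp2 for Ppp1r15a.

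None of the 4 tested stress transcription factors and regulators was called as deposited, beside 63.3% of all tested genes called in either direction. Atf3, a stress-induced repressor, averaged 2.99 ± 0.585 FPKM in Rtcb KO and 3.25 ± 0.499 FPKM in WT. Trib3, a pseudokinase that restrains ATF4 signalling, was at 2.95, 1.21 and 1.91 FPKM in Rtcb KO libraries and at 1.31, 1.69 and 1.38 FPKM in WT libraries, with overlapping groups (adjusted p = 0.339). Cebpb, a partner of ATF4 on CARE sites, was at 20.9, 13.0 and 26.8 FPKM in Rtcb KO libraries and at 17.4, 17.6 and 17.5 FPKM in WT libraries. The WT values were nearly equal while the Rtcb KO values spread to both sides of them (log2 fold change 0.14, adjusted p = 0.601). Cebpb was called higher without KO 2 (log2 fold change 0.42, adjusted p = 0.0387) and with the genotype factors removed (0.68, adjusted p = 0.0419). Nupr1, a small stress-induced chromatin protein, ranged from 0.187 to 1.68 FPKM in Rtcb KO and from 0.308 to 2.22 FPKM in WT. It passed the filter narrowly, with a mean of 1.0006 FPKM over the 6 libraries. Atf5, a stress-regulated relative of ATF4, averaged 0.678 ± 0.161 FPKM in Rtcb KO and 0.638 ± 0.503 FPKM in WT and was under the filter. Exons of Cebpb overlap those of Tmem189, and exons of Atf5 those of Il4i1 and Nup62, in each case on the opposite strand.

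Atf4 itself, no member here, showed the same lack of separation. It was at 302, 206 and 298 FPKM in Rtcb KO libraries and at 311, 277 and 269.6 FPKM in WT libraries (log2 fold change −0.11, adjusted p = 0.559). Ddit3, which encodes the ATF4 target CHOP, averaged 219 ± 14.7 FPKM in Rtcb KO and 243 ± 43.1 FPKM in WT (adjusted p = 0.395). Both were called higher with the genotype factors removed, with log2 fold changes of 0.47 (adjusted p = 0.0371) and 0.45 (adjusted p = 0.0255). Protein levels and eIF2 phosphorylation were not analysed here.

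**Figure D3:**
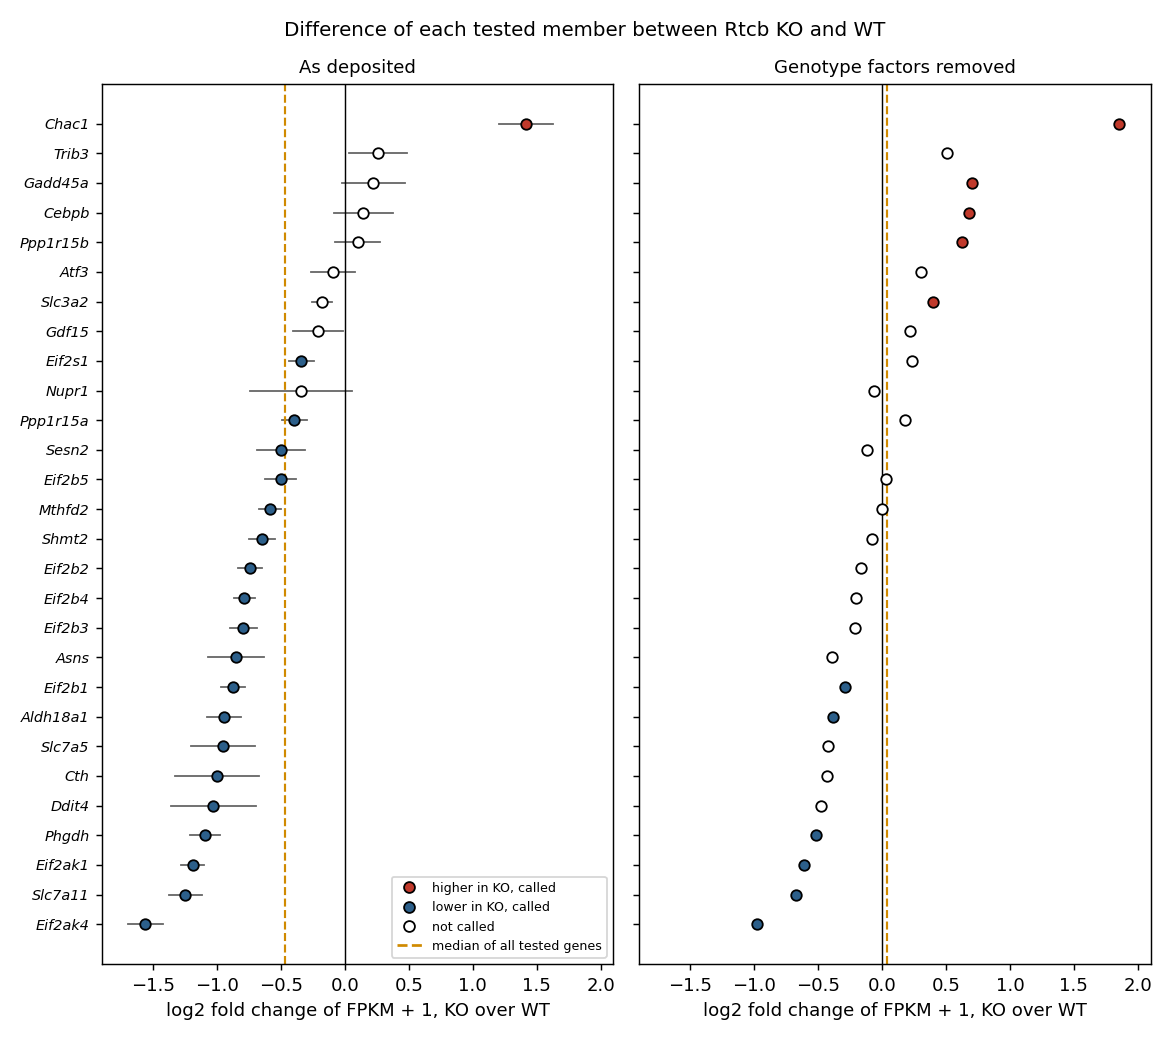
Log2 fold change of FPKM + 1, KO over WT, for the 28 tested members, as deposited (left, bars show the SE) and with the genotype factors removed (right); filled points were called, the dashed line is the median of all tested genes. Chac1 stands at 1.41 as deposited, the eIF2 kinases and Slc7a11 lie furthest left in both panels, and most eIF2B points lose their call on the right.

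Chac1, which encodes a glutathione-degrading cyclotransferase induced by ATF4, was the member that rose. Its level was 26.3, 14.4 and 22.7 FPKM in Rtcb KO libraries, against 7.15, 7.62 and 6.46 FPKM in WT libraries. All 3 Rtcb KO libraries lay above WT, with KO 2 the lowest of them, and the mean was 2.98-fold higher (log2 fold change 1.41, SE 0.213, adjusted p = 0.000777). Leaving out single libraries moved the ratio of means between 2.62 (without KO 1) and 3.46 (without KO 2).

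The other 6 members of this group were of growth control and secreted stress signals among others. Ddit4 and Sesn2 fell as deposited, beside 54.0% of all tested genes called lower. Gadd45a and Gdf15 were not called, and Stc2 and Vldlr were not tested. Ddit4, an inhibitor of mTORC1 signalling known as REDD1, was at 5.97, 7.18 and 8.71 FPKM in Rtcb KO libraries and at 14.3, 27.9 and 9.66 FPKM in WT libraries. The groups did not overlap, but WT 2 was far above the other WT libraries (log2 fold change −1.03, adjusted p = 0.0269). The call was lost without KO 1, KO 2, WT 1 or WT 2 (adjusted p up to 0.0806), and the ratio of means ran from 0.345 (without WT 3) to 0.609 (without WT 2). Sesn2, a leucine-sensing inhibitor of mTORC1, averaged 1.19 ± 0.246 FPKM in Rtcb KO and 2.11 ± 0.507 FPKM in WT (adjusted p = 0.0458). Its call was lost without any 1 library other than WT 3 (adjusted p up to 0.125). Gadd45a, a growth arrest protein, was at 11.5, 7.35 and 11.8 FPKM in Rtcb KO libraries and at 7.90, 11.7 and 6.42 FPKM in WT libraries, with overlapping groups (adjusted p = 0.447). It was called higher with the genotype factors removed (log2 fold change 0.70, adjusted p = 0.0393). Exons of E230016M11Rik overlap it on the opposite strand. Gdf15, a secreted stress signal, averaged 3.30 ± 0.363 FPKM in Rtcb KO and 4.03 ± 1.06 FPKM in WT (adjusted p = 0.377). Stc2, a secreted glycoprotein, averaged 0.637 ± 0.141 FPKM in Rtcb KO and 0.735 ± 0.348 FPKM in WT and lay just under the filter, with a mean of 0.686 FPKM over the 6 libraries. Vldlr, a lipoprotein receptor, was at most 0.460 FPKM in Rtcb KO and 0.308 FPKM in WT.

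Of the 3 amino acid transporter transcripts 2 fell in Rtcb KO oocytes as deposited, beside 54.0% of all tested genes called lower. That of the shared heavy chain, Slc3a2, was not called as deposited and turned sign under other scalings. Slc7a11, the light chain of the cystine and glutamate exchanger, was at 20.3, 22.8 and 18.2 FPKM in Rtcb KO libraries, against 44.8, 49.5 and 55.5 FPKM in WT libraries. The groups lay far apart and the mean was 2.44-fold lower (log2 fold change −1.25, SE 0.128, adjusted p = 0.000203). Slc7a5, the light chain of the large neutral amino acid transporter LAT1, was at 3.05, 3.55 and 4.67 FPKM in Rtcb KO libraries and at 5.87, 7.50 and 11.9 FPKM in WT libraries (2.24-fold lower, adjusted p = 0.0111). Slc7a11 stayed called with the genotype factors removed (log2 fold change −0.67, adjusted p = 0.00484) and Slc7a5 did not stay so (−0.42, adjusted p = 0.167). Slc3a2, the heavy chain shared by both transporters, was at 175, 178 and 180.0 FPKM in Rtcb KO libraries and at 203, 195 and 205 FPKM in WT libraries. The groups did not overlap, yet the difference was small and was not called (log2 fold change −0.18, adjusted p = 0.0713). It turned to a call higher in Rtcb KO with equal totals (0.25, adjusted p = 0.0320) and with the genotype factors removed (0.40, adjusted p = 0.00478).

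Within a library the ratio of 2 transcripts does not depend on the scaling. Between Slc3a2 and Slc7a11 this ratio of FPKM was 8.65, 7.81 and 9.89 in Rtcb KO libraries and 4.54, 3.95 and 3.70 in WT libraries. The Rtcb KO ratios were all higher, 2.16-fold on average over log2 values (exact permutation test, two-sided, p = 0.1, the smallest that 3 against 3 can give). The ratio of Slc7a11 to Chac1 was 0.770, 1.58 and 0.803 in Rtcb KO libraries and 6.26, 6.49 and 8.58 in WT libraries, again with no overlap (exact p = 0.1). The ratio of Ppp1r15a to Ppp1r15b averaged 3.83 ± 0.861 in Rtcb KO and 5.37 ± 0.243 in WT, and that of Eif2ak1 to Eif2ak4 10.4 ± 1.51 in Rtcb KO and 7.51 ± 1.05 in WT (n = 3 each, exact p = 0.1 for each). The ratio of Mthfd2 to Shmt2 averaged 4.71 ± 0.534 in Rtcb KO and 4.45 ± 0.0399 in WT and overlapped (exact p = 0.7), as did that of Eif2b1 to Eif2b5 (exact p = 0.2). Of 9 ratios computed, chosen after values were seen, 6 had groups that did not overlap, each with a Benjamini-Hochberg adjusted p of 0.15. A ratio does not show which of the 2 transcripts differed.

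**Figure D4:**
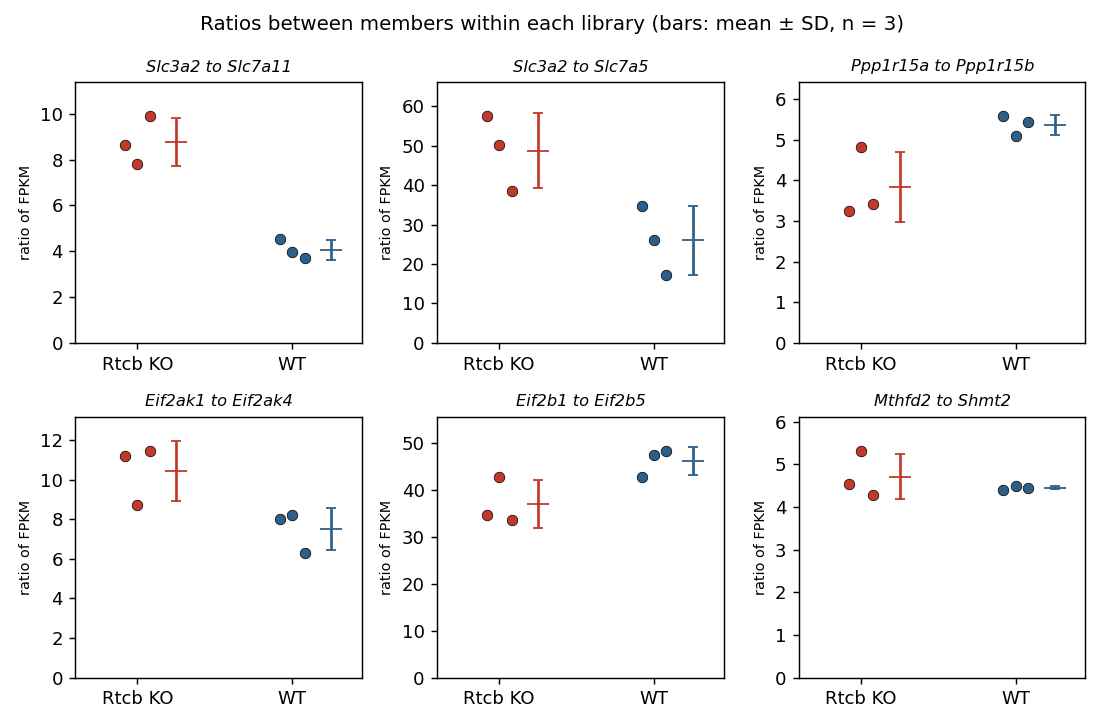
Ratio of FPKM between 2 members in each library, in Rtcb KO (left in each panel) and WT (right), with the mean ± SD (n = 3). The Slc3a2 to Slc7a11 ratio lies at 7.81 to 9.89 in Rtcb KO and at 3.70 to 4.54 in WT, while the Mthfd2 to Shmt2 ratio overlaps between the genotypes.

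Of the 4 listed enzymes of serine synthesis and mitochondrial folate metabolism, 3 fell in Rtcb KO oocytes as deposited, beside 54.0% of all tested genes called lower. With the genotype factors removed 1, Phgdh, stayed called, beside 18.0% of all tested genes called lower. Phgdh, which catalyses the entry step of serine synthesis, was at 18.8, 16.3 and 19.9 FPKM in Rtcb KO libraries and at 38.5, 39.2 and 42.8 FPKM in WT libraries. The groups lay apart and the mean was 2.19-fold lower (log2 fold change −1.09, SE 0.116, adjusted p = 0.000220), a call that held with the genotype factors removed (−0.52, adjusted p = 0.00877). A pseudogene of it, Phgdh-ps1, is in RefSeq, so reads could be shared. Psat1, the aminotransferase of the next step, was near 0 in both genotypes, at most 0.629 FPKM in Rtcb KO and 0.204 FPKM in WT. Psph, the phosphatase of the last step and no member here, went the other way. It was at 25.1, 16.0 and 24.5 FPKM in Rtcb KO libraries and at 5.14, 3.22 and 4.41 FPKM in WT libraries. The groups lay far apart and the mean was 5.15-fold higher (log2 fold change 2.11, adjusted p = 0.000202). Shmt2 and Mthfd2, the mitochondrial enzymes that pass serine carbon to folate, fell 1.58-fold and 1.50-fold. Mthfd2 averaged 185 ± 10.9 FPKM in Rtcb KO and 278 ± 16.6 FPKM in WT, the most abundant enzyme of the list. Removal of the genotype factors left log2 fold changes of −0.076 for Shmt2 (adjusted p = 0.568) and −0.0020 for Mthfd2 (adjusted p = 0.988). A stretch of 32 exonic bases of Shmt2 overlaps Ndufa4l2 on the opposite strand.

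Among the other amino acid enzymes, Aldh18a1, which starts proline synthesis from glutamate, was at 8.49, 8.46 and 7.25 FPKM in Rtcb KO libraries and at 18.2, 15.8 and 15.4 FPKM in WT libraries. It was 2.04-fold lower with no overlap (log2 fold change −0.94, SE 0.132, adjusted p = 0.000566), and with the genotype factors removed it stayed called (−0.39, adjusted p = 0.0395). Asns, asparagine synthetase and a textbook ATF4 target, was at 1.56, 1.06 and 1.03 FPKM in Rtcb KO libraries and at 2.80, 4.22 and 2.17 FPKM in WT libraries. It was low in both genotypes and 2.53-fold lower in Rtcb KO (adjusted p = 0.00977), with no call once the factors were removed (−0.39, adjusted p = 0.107). Cth, which makes cysteine from cystathionine, was at 7.70, 17.9 and 6.14 FPKM in Rtcb KO libraries and at 17.8, 21.5 and 21.2 FPKM in WT libraries. KO 2 lay within the WT range while KO 1 and KO 3 lay well below it. Its call (adjusted p = 0.0281) was lost without any 1 library other than KO 2 (adjusted p up to 0.0966), and the ratio of means was 0.525 with all libraries, 0.344 without KO 2 and 0.635 without KO 3. Pck2, the mitochondrial phosphoenolpyruvate carboxykinase, was at most 0.0553 FPKM in Rtcb KO, and in WT at 0.0315 FPKM in WT 1 and listed at 0 in WT 2 and WT 3.

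The windows shown above were picked because their transcripts differed, so they cannot tell whether the core goes with direction, which was not tested. Of the 8 genes with TGATGNAA in the window, Chac1 rose and Slc7a11 fell, and Asns was called lower as deposited only. Atf3, Trib3 and Nupr1 were not called, and Pck2 and Vldlr were under the filter. Chac1 and Slc7a11 both carry the stricter TGATGCAA and were called in opposite directions.

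Library KO 2 recurred as the lowest of the Rtcb KO libraries among members that leaned upward. It was lowest for all 5 tested members with a positive log2 fold change, namely Chac1, Trib3, Gadd45a, Cebpb and Ppp1r15b. The same held for 72.7% of all 2802 tested genes with a positive log2 fold change, and for 85.3% of the 1118 genes called higher. Of the 19 members called lower, KO 2 was lowest for 5 (26.3%), against 31.2% of the 6501 genes called lower. Without KO 2, 2 members were called higher, Chac1 and Cebpb, and 17 lower, while 7479 of all 12029 tested genes were called in either direction.

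Other genes of the pathway were taken from lists made with earlier results of these data known. Of 17 further eIF2 control genes, 15 were tested, 3 rose and 9 fell, beside 9.29% of all tested genes called higher and 54.0% lower, with a median log2 fold change of −0.50 against −0.47 for all genes. After removal of the genotype factors 4 were higher and 4 lower, beside 25.7% and 18.0% of all tested genes. Gcn1, the ribosome-bound activator of GCN2 (listed as Gcn1l1), averaged 4.82 ± 0.484 FPKM in Rtcb KO and 18.0 ± 0.732 FPKM in WT, a fall of 3.73-fold (adjusted p = 0.000162). Oma1, the mitochondrial protease that starts signalling to HRI, fell 2.49-fold, and Dnajc3, an inhibitor of PERK and PKR, 2.30-fold. Eif2s3x, the gamma subunit of eIF2, fell 1.97-fold, Ppp1ca, a catalytic subunit of protein phosphatase 1, 1.56-fold, and Eif5, the GTPase activator of eIF2, 1.42-fold. Neither Ppp1ca nor Eif5 stayed called without the genotype factors, at −0.052 and 0.082 on the log2 scale. The 3 that rose, named after their values were seen, were Eif2ak3, Nck1 and Impact. Impact, an inhibitor of GCN2 activation by GCN1, was at 7.97, 5.65 and 6.24 FPKM in Rtcb KO libraries and at 0.967, 2.86 and 2.11 FPKM in WT libraries. The groups lay apart (3.34-fold higher, log2 fold change 1.40, adjusted p = 0.00213), and the ratio ran from 2.66 (without WT 1) to 4.30 (without WT 2). Nck1, an adaptor linked to eIF2 phosphatase activity, averaged 169.6 ± 32.4 FPKM in Rtcb KO and 115 ± 8.62 FPKM in WT (adjusted p = 0.0128). Gcn1 and Impact kept their calls and directions without the genotype factors, at −1.12 and 1.60 on the log2 scale.

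Of 27 further ATF4 factors and targets, 15 were tested, 1 rose and 8 fell, with a median of −0.46, beside the same 9.29% and 54.0% of all tested genes. After removal of the genotype factors 4 were higher and 3 lower, beside 25.7% and 18.0% of all genes. Psph rose, as described with the serine enzymes. Lonp1, a mitochondrial protease, fell 2.38-fold, Mthfd1l, of mitochondrial folate metabolism, 2.25-fold, and Got1, the cytosolic aspartate aminotransferase, 2.04-fold. The branched-chain aminotransferase Bcat1 fell 1.85-fold and the glycine transporter Slc6a9 1.83-fold, neither staying called with the genotype factors removed (adjusted p = 0.124 and 0.0820). Of 13 listed cytosolic tRNA synthetases, also ATF4 targets in part, 12 were tested, 0 rose and 12 fell, beside the same 54.0% of all tested genes called lower. With the genotype factors removed 9 were lower, beside 18.0% of all tested genes. The median log2 fold change of the 12 was −1.06, against −0.62 for the members and −0.47 for all genes. The call of Aars (limma adjusted p = 0.0499) was lost without any 1 library other than WT 3 (adjusted p up to 0.144).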

How the data were processed

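Polyadenylated RNA of 10 oocytes per library was converted to cDNA by Smart-seq2 with oligo-dT priming and ERCC spike-ins and sequenced as 150-base paired ends, per the labels' protocols. Only RNA caught by its poly(A) tail was measured, and differences of tail length were not tested. TopHat2 2.1.1, Cufflinks 2.2.1 and build mm9 are named in the submitters' processing notes, which name no annotation. The deposited values are FPKM normalized by the authors to the spike-ins, per the labels. No source used here says how the spike-in factors were derived. Cufflinks values carry 6 significant digits, and of 252 fractions tried, 2 for WT and 4/3 for KO gave 6 digits for 100% of values from 1 up (within 0.01 of the final digit), against at most 76.8% for the next. With 1 factor per genotype, error of the scaling between genotypes is not part of the replicate spread.

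Genes averaging 1 FPKM or more were tested with limma 3.58.1 in R 4.3.3 (lmFit, eBayes with an intensity trend) on log2(FPKM + 1), two-sided, Benjamini-Hochberg adjusted over 12029 genes. This scale understates changes of low genes. With the genotype factors removed it does so more, since the pseudocount stayed at 1 FPKM after the division. For Asns the log2 fold change was then −0.39 while the ratio of means was 0.593. The step was tested on simulated data. FPKM keep no depth, so counting error is unknown. Alternatives were pseudocounts of 0.1 and 5, no filter, a minimum mean of 10 FPKM, equal totals, median-ratio rescaling, genotype factors removed, no intensity trend, a replicate block and each library left out. All 33 members are named, with up to 6 genes of smallest p per further list. Eif2ak2, Eif2ak3, Impact, Nck1, Atf4, Ddit3 and Aars were named after their values were seen. So were the markers Cd74, Lyz2, Cd68, Pecam1, Cyp19a1, Nr5a2, Inha, Cyp11a1, Kitl, Foxl2, Fshr and Amh. The members and lists were chosen with earlier results of these data known. Promoter windows came from RefSeq GRCm38.p6 and exon overlaps from GENCODE vM21, another build than the values, so no coordinates of expression are given. Python 3.11.15, pandas 2.3.3, numpy 2.4.6 and matplotlib 3.10.9 were used.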

Additional observations from a re-analysis of the deposited data

How the results depend on the processing

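The 19 members called lower were 9 with equal totals, 7 with median-ratio rescaling and 6 with the genotype factors removed, and the 1 called higher became 2, 5 and 5. The shares of all tested genes moved the same way. In the same order, 54.0% called lower became 25.8%, 21.2% and 18.0%, and 9.29% called higher became 19.0%, 23.4% and 25.7%. Under the pseudocounts, filters, fit without a trend and replicate block, members called higher stayed at 1 and members called lower ran from 16 to 19. With the minimum mean of 10 FPKM only 20 members were tested, and each kept its sign and its call or lack of one. With single libraries left out, members called higher ran from 1 to 2, members called lower from 16 to 18 and all called genes from 6523 to 7479 of 12029. As deposited, 7619 of 12029 tested genes were called. Under other alternatives the number lay between 5184 of 7267 tested genes, with a minimum mean of 10 FPKM, and 7786 of 18553 with no filter. The filters changed how many genes were tested, so these numbers do not compare as shares.

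Signs turned for 6 members with the genotype factors removed, a scaling that raises all KO values against WT: Atf3 (log2 fold change 0.30), Ppp1r15a (0.18), Eif2s1 (0.24), Eif2b5 (0.029), Slc3a2 (0.40) and Gdf15 (0.22). With equal totals the values were 0.23 for Atf3, 0.030 for Ppp1r15a, 0.088 for Eif2s1, 0.25 for Slc3a2 and 0.13 for Gdf15, and with median-ratio rescaling 0.30, 0.12, 0.18, 0.34 and 0.20 in the same order. Without KO 3 the uncalled values of Atf3, Cebpb and Ppp1r15b turned to 0.019, −0.078 and −0.029. With single libraries left out, Atf3 ran from −0.19 to 0.019, Cebpb from −0.078 to 0.42 and Ppp1r15b from −0.029 to 0.30.

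Replicate numbers are shared between the genotypes, but the labels do not say that they mark a shared litter or day. Correlations of deviations between same-numbered libraries were 0.14, −0.099 and 0.038, and those between libraries of unlike number ran from −0.24 to 0.17. With 3 libraries per genotype these values cannot decide whether the numbers mark pairs. The numbers were not taken as pairs. With the replicate block 7540 genes, 1 member higher and 18 members lower were called, Sesn2 being lost (adjusted p = 0.0762). The FPKM hold no read depth, so the error of members near 1 FPKM is known only from the spread of 3 libraries.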
